A study of Mus musculus with 15 samples.

Results

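The 38 genes described here carry glucose uptake, glycolysis, lactate handling and glycogen metabolism, and were taken by gene symbol from a fixed list, out of 47643 symbols in the expression table. All 38 were found and all 38 passed the filter on low values (1 TPM or more in 3 or more of 15 libraries), as did 11923 symbols in all. TPM is an abundance per transcript length scaled to the same total in every library. The tissue was the tibialis anterior, a fast muscle of the shin, from female C57BL/6J mice labelled as 7 weeks old. The series text places collection 49 days after implantation, while a protocol label also speaks of a 3-week interval for another tumour, and whether the age refers to implantation or collection is not stated. The melanoma group (4 libraries) carried a melanoma xenograft described as causing cachexia, the wasting of muscle and fat that accompanies cancer. The melanoma plus lisinopril group (4 libraries) carried the same tumour and received lisinopril, an inhibitor of the angiotensin-converting enzyme used against high blood pressure. The lisinopril group (3 libraries) was mock-injected and received the drug, and the control group (4 libraries) was mock-injected and received no drug. No engineered allele is named for any group, and neither the dose of lisinopril nor the tumour line is stated in the labels. The labels call the samples biological replicates without tying each to an animal, so p-values measure the spread between these samples.

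Muscle fibres take up glucose through transporters in their membrane, trap it as glucose phosphate, and either split it by glycolysis to pyruvate and lactate or store it as glycogen. Glycogen is begun on the primer protein glycogenin, extended by glycogen synthase and taken apart by glycogen phosphorylase, with phosphorylase kinase and the targeting subunits of protein phosphatase 1 setting which side prevails. Fast fibres hold very large amounts of the glycolytic enzymes. Some of these are muscle forms encoded by genes separate from those of other tissues, such as Pfkm, Pgam2 and Eno3.

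Fast-fibre transcripts were abundant in every library: the 8 markers of fast glycolytic fibres summed to between 62819 and 137114 TPM in tumour-bearing muscle and to between 68596 and 118736 TPM in tumour-free muscle. None of 5 melanocytic markers was kept, and the highest single value was 0.327 TPM. Neutrophil markers moved with the tumour, 6 of 7 being higher, where 14.5% of all genes tested were. Their summed level was 32.5 to 349 TPM in tumour-bearing and 10.5 to 97.8 TPM in tumour-free libraries. Only 2 of 6 macrophage markers (42.3 to 145 against 17.3 to 99.5 TPM) and 2 of 5 fibroblast markers (317 to 708 against 168 to 922 TPM) were higher. The rest of both lists did not pass, and the summed ranges overlapped. Of 5 endothelial markers 1 rose and 1 fell, and none of the 7 slow-fibre, 5 erythrocyte or 3 kept adipocyte markers passed the test. Their part in the results below was not tested. In bulk tissue, fewer cells of a type and less RNA per cell cannot be told apart. The deposited TPM keep no read totals, so the depth behind each value is unknown, and between 10530 and 12363 symbols reached 1 TPM per library.

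A pair of libraries stood apart. Melanoma 2 and control 2 had mean correlations of 0.938 and 0.937 with the rest of their own group, while the next lowest, melanoma 3, had 0.9647. Melanoma 2 held the lowest value of all 15 libraries for 16 of the 38 genes, among them glycerol-3-phosphate dehydrogenase Gpd1 (32.0 TPM, against at least 200.7 TPM in the other 14) and Phka1, a regulatory subunit of phosphorylase kinase (36.9 against at least 138 TPM). It also held the highest Slc2a1, Gpi1 and Ugp2. Its Pvalb, which encodes the calcium buffer of fast fibres, stood at 554 TPM, against at least 5159 TPM elsewhere. Other fast-fibre markers differed less: Mylpf had 4842 TPM, against at least 8621 TPM elsewhere, and Actn3 had 2541 TPM, within the 1665 to 6717 TPM elsewhere. Its 8 fast-fibre markers summed to 62819 TPM, against at least 68596 TPM in tumour-free libraries. Melanoma 2 also held the highest neutrophil and macrophage marker sums among tumour-bearing libraries, 349 and 145 TPM. Control 2 was lowest for 6 of the genes and highest for Hk1, Pfkl and Pgm1, and its haemoglobin transcripts summed to 23878 TPM, against at most 4197 TPM elsewhere. Melanoma plus lisinopril 4 differed in fibre type markers, with 59.3 TPM of the slow myosin Myh7, against at most 12.4 TPM elsewhere. Counts of changed genes are therefore also given without melanoma 2 and control 2. Both were set apart partly by the values of these same genes, so those counts are not an independent test.

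Together the 38 transcripts made up 2.46% to 4.77% of all TPM per library. Their sum averaged 37260 ± 9604 TPM in melanoma muscle, 37851 ± 3142 TPM in melanoma plus lisinopril muscle, 38895 ± 3419 TPM in lisinopril muscle and 32668 ± 7120 TPM in control muscle (SD, n = 4, 4, 3 and 4). The largest difference between group means was less than the SD within the melanoma or the control group, but more than that within the other groups. Melanoma 2 and control 2 had sums of 25310 and 24575 TPM, and the other 13 libraries 30897 to 47669 TPM. The level of single genes spanned several orders of magnitude: 9 averaged over 1000 TPM across all libraries, 16 lay between 100 and 1000 TPM, 9 between 10 and 100 TPM, and 4 below 10 TPM. Aldoa, the muscle aldolase, led with a mean of 8106 TPM, followed by the muscle enolase Eno3 with 5804 TPM and the muscle glycogen phosphorylase Pygm with 3129 TPM, and Hk1 was lowest with 4.06 TPM. Forms typical of other tissues stayed low beside the muscle forms, such as Pfkl with 2.57 to 8.23 TPM beside Pfkm with 1448 to 3091 TPM. The pooled within-group SD on the log2 scale was smallest for Gapdh (0.18) and largest for Gpd1 (1.03), with a median of 0.41.

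**Figure D1:**
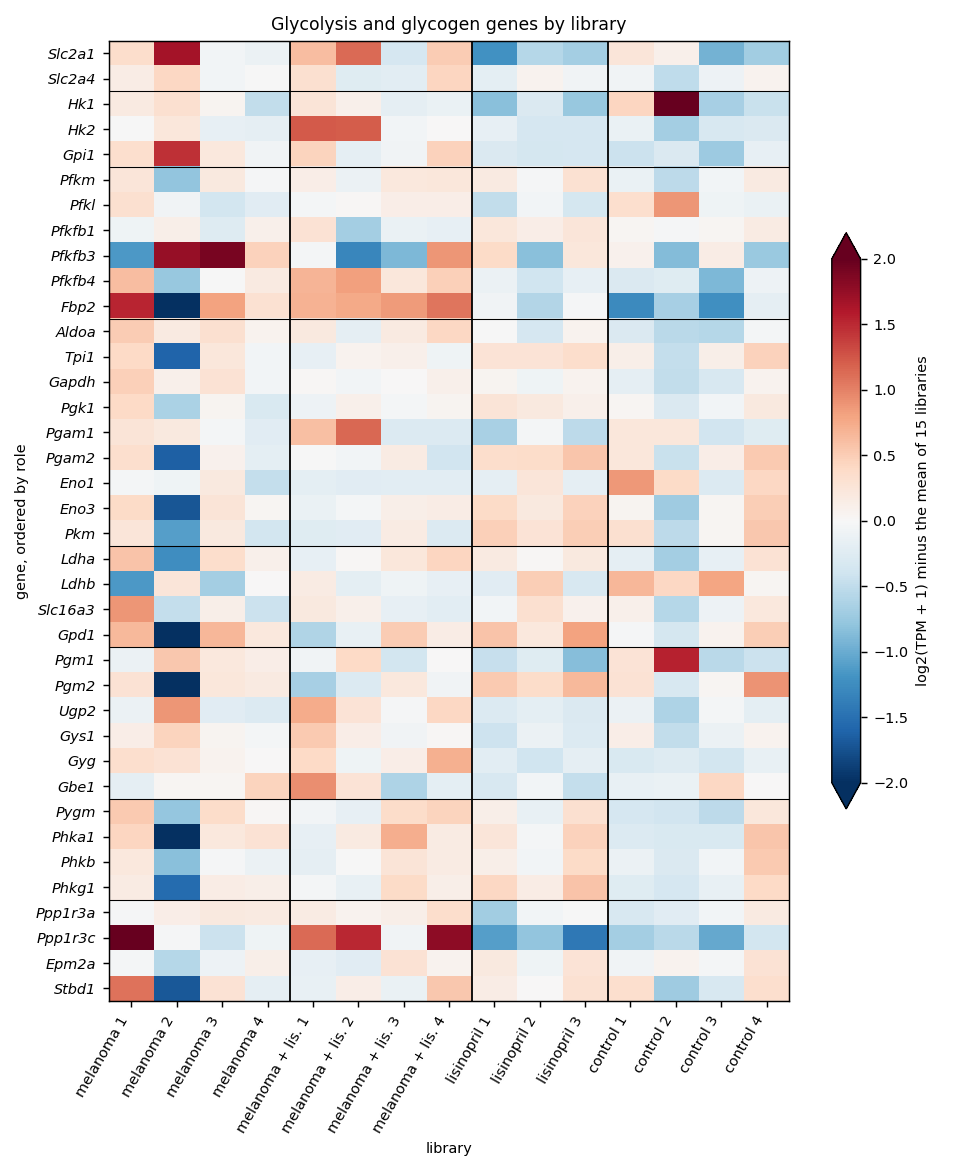
Log2(TPM + 1) of the 38 genes in each of the 15 libraries, minus the gene's mean over all libraries; rows follow the roles from glucose uptake to glycogen regulation and columns the groups melanoma, melanoma plus lisinopril, lisinopril and control, with colours saturating at 2 units. Melanoma 2 appears as a column with many low values, 16 of them the lowest of all libraries, and Ppp1r3c is high in most tumour-bearing libraries.

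The first comparison asked for the effect of the tumour across both drug arms, as the average of melanoma minus control and melanoma plus lisinopril minus lisinopril. Slc2a1, Hk2, Gpi1, Pfkfb4, Aldoa, Gyg and Ppp1r3c rose, and no member fell. With limma and Benjamini-Hochberg adjustment over all genes tested, these 7 of 38 were 18.4% of the list, beside 14.5% of all 11923 genes called higher, and the 0 of 38 called lower stood beside 3.45% of all genes. The share called higher was thus near that of all genes. At an unadjusted p under 0.05 there were 13 members, against 38% of all genes. The median log2 fold change of the members was 0.08, against 0.17 for all genes tested, and 18 of 38 members lay above that all-gene median. All log2 fold changes were computed on log2(TPM + 1), which understates changes of genes of low level.

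By role, the counts were small and no difference between roles was tested. Signs are counted against 0, while the median of all genes was 0.17. Of the 5 genes of glucose uptake and entry, 3 rose, and all 5 had positive signs. The median log2 fold change was 0.62 for the pair of transporters and 0.60 for Hk1, Hk2 and Gpi1. Hk1, at 0.11, lay below the median of all genes. Under median-ratio rescaling Slc2a4 and Hk1 turned to -0.0067 and -0.031. In the lower part of glycolysis, 6 of 9 genes had negative signs and the median was -0.27, although Aldoa rose. Lactate and glycerol phosphate genes had a median of -0.24 and none of 4 was called. Among 6 genes of glycogen synthesis 5 had positive signs (median 0.29), and among 4 genes of phosphorylase and its kinase 3 had negative signs (median -0.13). At the phosphofructokinase step 5 of 6 genes had positive signs (median 0.21), and Pfkfb4 rose. The 4 genes of glycogen regulation had 2 positive and 2 negative signs (median 0.14), and Ppp1r3c rose.

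**Figure D2:**
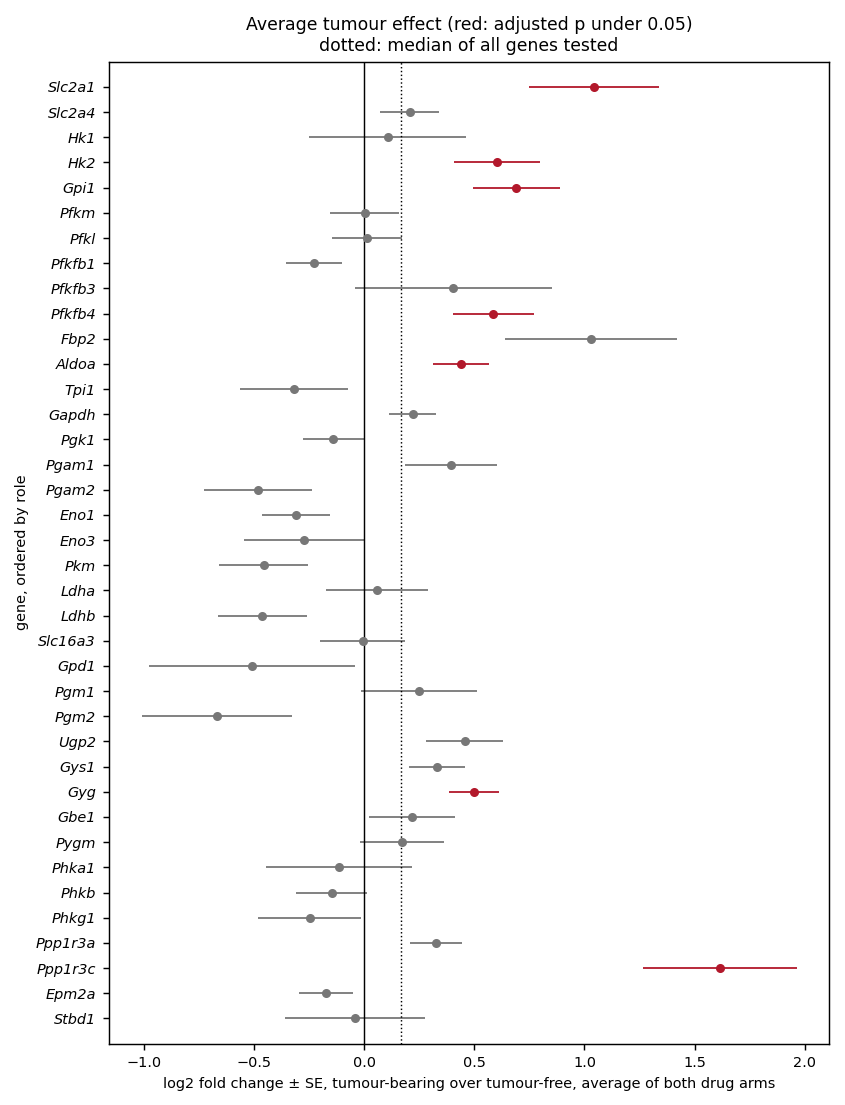
Log2 fold change (horizontal axis) with its standard error for each of the 38 genes (vertical axis, ordered by role), tumour-bearing over tumour-free muscle, averaged over both drug arms. Red points passed an adjusted p of 0.05, and the dotted line marks the median of all genes tested, 0.17; the 7 red points all lie to its right, led by Ppp1r3c at 1.62.

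Ppp1r3c moved most. It encodes the protein phosphatase 1 subunit that targets the phosphatase to glycogen and favours glycogen synthesis, also known as PTG (GRCm38 chromosome 19, 36731731 to 36736653, minus strand). Its level was 1625, 377, 286 and 363 TPM in the melanoma libraries and 847, 1097, 366 and 1333 TPM in the melanoma plus lisinopril libraries, against 178, 222 and 143 TPM in the lisinopril libraries and 241, 265, 189 and 298 TPM in the control libraries. Of the 8 tumour-bearing libraries, 7 were above every tumour-free library, and melanoma 3 lay within the control range. The levels within each tumour-bearing group were widely spread, with melanoma 1 far above the other melanoma libraries. The average tumour effect was a log2 fold change of 1.62 ± 0.35 (SE), or 3.06-fold (limma, adjusted p = 0.00991). It passed the threshold in all 26 alternative settings, which included leaving out each library in turn, with log2 fold changes of 1.33 to 1.81.

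To show what lies upstream of the genes that rose, the 250 bases before their RefSeq starts were searched on both strands for the hypoxia response core ACGTG, the E-box CACGTG (which contains that core), the cyclic AMP response element TGACGTCA, the FOXO motif GTAAACA, the canonical glucocorticoid response element and the GC box GGGCGG. All 7 genes matched RefSeq promoter entries (9 entries, since Aldoa has 3). Ppp1r3c held 3 ACGTG matches beginning 189, 104 and 103 bases before the start, the last pair overlapping as 1 CACGTG palindrome, and Hk2 held 2, beginning 226 and 52 bases before the start. Both are printed here because they hold more than 1 match. Capitals mark the ACGTG core read on either strand. The sequences are from RefSeq, build GRCm38.p6, 5′ to 3′ on the minus strand, at chr19:36736654-36736854 for Ppp1r3c, ended 49 bases early where a GENCODE transcript begins, and at chr6:82774455-82774704 for Hk2.
Ppp1r3c: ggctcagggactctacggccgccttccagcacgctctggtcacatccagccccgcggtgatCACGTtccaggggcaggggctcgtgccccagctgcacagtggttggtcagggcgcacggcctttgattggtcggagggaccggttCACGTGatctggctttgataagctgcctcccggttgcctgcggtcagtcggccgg
Hk2: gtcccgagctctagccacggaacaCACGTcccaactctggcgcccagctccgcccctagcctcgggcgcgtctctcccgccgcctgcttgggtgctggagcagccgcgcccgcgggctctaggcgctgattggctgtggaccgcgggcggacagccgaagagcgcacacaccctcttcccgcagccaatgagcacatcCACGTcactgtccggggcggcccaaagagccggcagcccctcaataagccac
Slc2a1 held 1 ACGTG match 36 bases before the start, 2 of 3 Aldoa entries held 1 each, and Gpi1, Pfkfb4 and Gyg held none. Only windows before RefSeq starts were searched. The RefSeq and GENCODE starts differ for Slc2a1 (119108745 and 119108711), Pfkfb4 (108988272 and 108991778) and Gyg (20155117 and 20155317). Windows before those GENCODE starts were not searched. Among 32851 promoter windows of this length, 16.6% held ACGTG and 6.02% held CACGTG. These shares were not matched for base composition, and the printed sequences were 66.2% (Ppp1r3c) and 69.6% (Hk2) G or C. Whether the 7 genes held ACGTG more often than other genes was not tested. No cyclic AMP response element (in 1.55% of all windows), FOXO motif (3.17%) or glucocorticoid response element (0.00913%) was found in the windows of the 7 genes, while 32.7% of all windows and at least 1 window of 6 of the 7 genes held a GC box. A match is a string of letters and not a shown binding site.

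Gyg, which encodes glycogenin, the protein primer on which a new glycogen particle is built (chromosome 3, 20122084 to 20155317, minus strand), was the single member whose groups did not overlap at all. It had 408, 391, 336 and 325 TPM in melanoma muscle and 425, 304, 352 and 524 TPM in melanoma plus lisinopril muscle. It had 277, 244 and 284 TPM in lisinopril muscle and 259.6, 269.9, 249.6 and 288 TPM in control muscle, so all 8 tumour-bearing libraries lay above all 7 tumour-free ones. Such complete separation upward was seen in 1 of 38 members and in 1.49% of all genes, and downward in 0 of 38 members and 0.839% of all genes. The log2 fold change was 0.50 ± 0.12 (limma, adjusted p = 0.0137). The call was kept in 24 of 26 alternative settings and was lost under rescaling by median ratios (0.29, adjusted p = 0.0723).

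Slc2a1 encodes GLUT1, the broadly expressed glucose transporter, which vessel walls also express (chromosome 4, 119108711 to 119137983, plus strand). It was low throughout, with 7.43, 19.9, 5.41 and 5.13 TPM in melanoma muscle and 9.11, 13.6, 4.24 and 8.40 TPM in melanoma plus lisinopril muscle, against 1.85, 3.46 and 3.13 TPM in lisinopril muscle and 6.84, 6.14, 2.45 and 3.08 TPM in control muscle. The tumour-bearing libraries were mostly higher, 5 of 8 above every tumour-free library, but the ranges overlapped, and melanoma 2 was the highest. The log2 fold change was 1.04 ± 0.29 (2.06-fold, limma, adjusted p = 0.0292), passing in 18 of 26 alternative settings, and it was 0.92 ± 0.24 without melanoma 2 and control 2 (adjusted p = 0.0150). Summed endothelial markers ranged over 105 to 169 TPM in tumour-bearing and 79.6 to 179 TPM in tumour-free libraries. Slc2a4, the insulin-responsive GLUT4 of muscle, was far more abundant and did not pass the test, with 377 ± 58.6 TPM in melanoma and 369 ± 88.7 TPM in melanoma plus lisinopril muscle, against 329 ± 31.3 TPM in lisinopril and 312 ± 50.0 TPM in control muscle (log2 fold change 0.21 ± 0.13, limma, adjusted p = 0.267).

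Hk2, the main hexokinase of insulin-responsive muscle, which traps glucose as glucose phosphate (chromosome 6, 82725025 to 82774454, minus strand), had 143, 168, 129 and 127 TPM in melanoma muscle and 338, 333, 139 and 145 TPM in melanoma plus lisinopril muscle. It had 128, 114 and 114 TPM in lisinopril muscle and 130.4, 89.2, 115 and 118 TPM in control muscle. The melanoma plus lisinopril libraries lay at 2 separate levels, 1 and 2 at 333 TPM or more and 3 and 4 at 145 TPM or less, and all 4 were above every lisinopril library. The average log2 fold change was 0.60 ± 0.19 (limma, adjusted p = 0.0457), the weakest of the 7 calls, passing in 9 of 26 alternative settings. Hk1, the hexokinase of most other tissues, had 1.31 to 4.60 TPM in every library except control 2, which had 21.5 TPM beside its high haemoglobin; the part of blood in that value was not tested.

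Gpi1 encodes glucose phosphate isomerase, the next enzyme (chromosome 7, 34201330 to 34230336, minus strand). It had 374, 812, 342 and 281 TPM in melanoma muscle and 400.3, 261, 279.7 and 409 TPM in melanoma plus lisinopril muscle, against 242, 231 and 232 TPM in lisinopril muscle and 218, 242, 179 and 262 TPM in control muscle. All melanoma libraries were above all control libraries, and 7 of the 8 tumour-bearing libraries were above every tumour-free one. The log2 fold change was 0.69 ± 0.20 (1.61-fold, limma, adjusted p = 0.0307), and 0.55 ± 0.14 without melanoma 2 and control 2 (adjusted p = 0.0111). It passed in 17 of 26 alternative settings and did not under median-ratio rescaling (0.48, adjusted p = 0.0556).

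At the phosphofructokinase step, the pace-setting reaction of glycolysis, the enzyme itself did not pass the test while 1 of its modifiers did. Pfkm, the muscle phosphofructokinase, had 2977, 1448, 2874 and 2459 TPM in melanoma muscle, 2736, 2308, 2896 and 2945 TPM in melanoma plus lisinopril muscle, 2829.7, 2463 and 3091 TPM in lisinopril muscle and 2293, 1741, 2398 and 2822 TPM in control muscle. These ranges overlapped fully apart from the low melanoma 2, and the log2 fold change was 0.00 ± 0.16 (limma, adjusted p = 0.993). Pfkfb4, 1 of the bifunctional enzymes that make and break the chief activator of phosphofructokinase (chromosome 9, 108991778 to 109032228, plus strand), had 50.8, 19.0, 32.8 and 37.2 TPM in melanoma muscle and 53.5, 58.6, 38.7 and 46.1 TPM in melanoma plus lisinopril muscle, against 30.1, 24.7 and 29.1 TPM in lisinopril muscle and 26.6, 27.5, 17.2 and 30.5 TPM in control muscle. Every tumour-bearing library except melanoma 2 exceeded every tumour-free library. The log2 fold change was 0.59 ± 0.18 (1.50-fold, limma, adjusted p = 0.0414), passing in 10 of 26 alternative settings, and 0.74 ± 0.15 without melanoma 2 and control 2 (adjusted p = 0.00490).

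Its paralogues did not pass. Pfkfb3 was the most scattered of them, with 17.4, 136, 151 and 55.1 TPM in melanoma muscle and 15.5 to 74.6 TPM in the other 3 groups (log2 fold change 0.40 ± 0.45, adjusted p = 0.521 by limma), and Pfkfb1 had 16.5 to 33.6 TPM throughout (-0.23 ± 0.13, adjusted p = 0.193 by limma). Pfkl, the liver form of the enzyme, did not pass either (0.01 ± 0.16, adjusted p = 0.960 by limma). Fbp2, the muscle fructose bisphosphatase that runs the step in reverse, depended on 1 library. It had 315, 26.3, 189 and 134 TPM in melanoma muscle and 176, 185, 197 and 230.1 TPM in melanoma plus lisinopril muscle, against 103, 72.1 and 107 TPM in lisinopril muscle and 44.4, 67.9, 46.0 and 96.0 TPM in control muscle. All tumour-bearing libraries but melanoma 2 were above every tumour-free library, and melanoma 2 was below every one. With all libraries the log2 fold change was 1.03 ± 0.39 and did not pass (limma, adjusted p = 0.0717); without melanoma 2 it was 1.39 ± 0.21 (adjusted p = 0.00225), and without melanoma 2 and control 2 it was 1.42 ± 0.22 (adjusted p = 0.00112).

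Aldoa splits the bisphosphate sugar and was the most abundant of the 38 (chromosome 7, 126795234 to 126800751 on the minus strand, with a further GENCODE entry of the same symbol next to it, 126800790 to 126809108). It had 11295, 8982, 9929 and 8269.6 TPM in melanoma muscle and 9109, 7012, 8980.3 and 10599 TPM in melanoma plus lisinopril muscle, against 7893, 6251 and 8304 TPM in lisinopril muscle and 6504, 5423, 5359.9 and 7683 TPM in control muscle. Each melanoma library exceeded each control library, while melanoma plus lisinopril 2 lay within the lisinopril range. The log2 fold change was 0.44 ± 0.13 (1.36-fold, limma, adjusted p = 0.0309) and was 0.23 under median-ratio rescaling, where it did not pass (adjusted p = 0.263). It passed in 16 of 26 alternative settings.

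**Figure D3:**
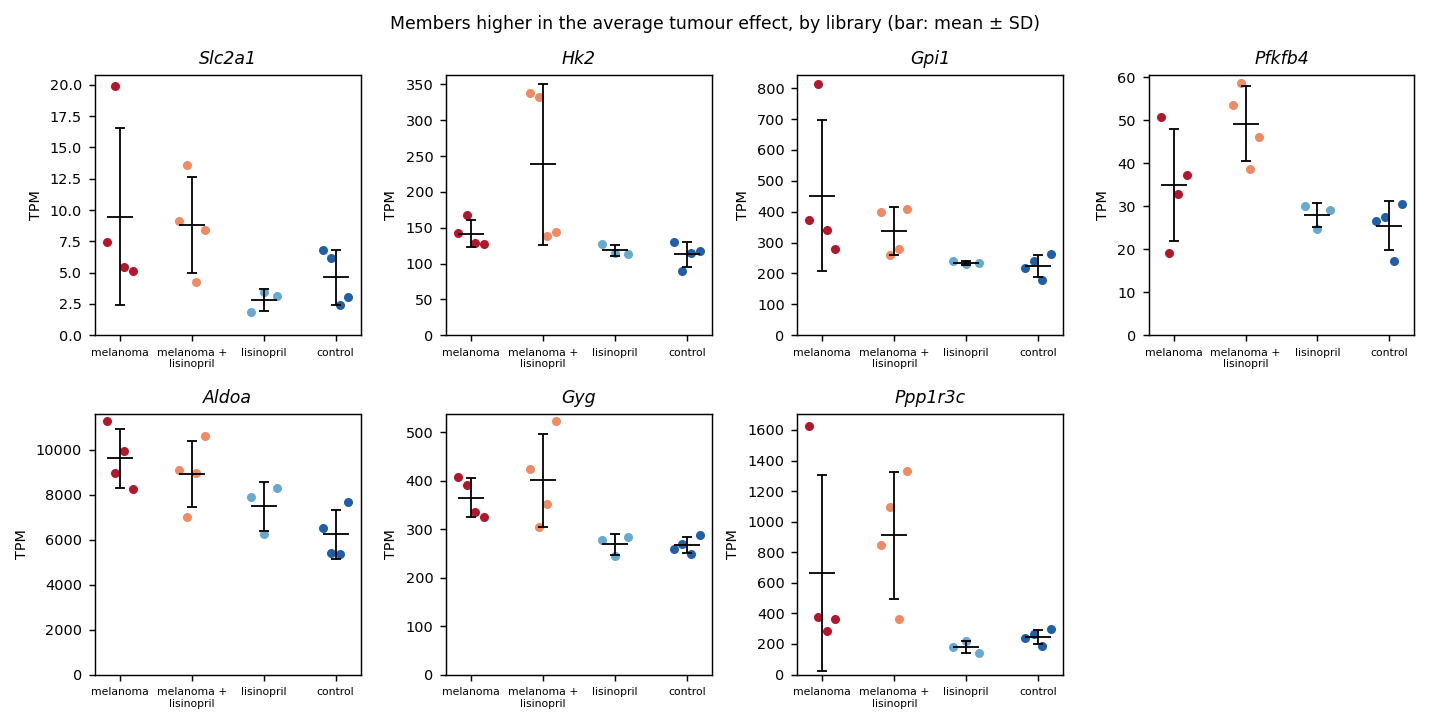
TPM (vertical axes, linear) of the 7 genes that rose in the average tumour effect, with 1 point per library in melanoma, melanoma plus lisinopril, lisinopril and control muscle and a bar for the mean ± SD. Only in Gyg do all 8 tumour-bearing points lie above all 7 tumour-free points; in Ppp1r3c melanoma 1 at 1625 TPM stands far above its group.

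The remaining enzymes of lower glycolysis did not rise with Aldoa. Gapdh, which oxidises the triose phosphate, was the most even, with 3429, 2649.8, 3029.9 and 2368 TPM in melanoma muscle, 2523, 2375, 2471 and 2644 TPM in melanoma plus lisinopril muscle, 2577, 2321 and 2602 TPM in lisinopril muscle and 2185, 1747, 1976 and 2581 TPM in control muscle (log2 fold change 0.22 ± 0.11, limma, adjusted p = 0.149). Tpi1, which interconverts the triose phosphates, had 2083, 522, 1850.3 and 1517 TPM in melanoma muscle, 1413, 1666, 1696 and 1490.1 TPM in melanoma plus lisinopril muscle, 1918, 1924 and 2030.3 TPM in lisinopril muscle and 1719.9, 1133, 1712 and 2173 TPM in control muscle (-0.32 ± 0.24, limma, adjusted p = 0.349). All melanoma plus lisinopril libraries were below all lisinopril libraries, while the melanoma and control ranges overlapped. The same held for Pgk1, the first enzyme of the pathway to yield ATP, which had 1091, 531, 859 and 668 TPM in melanoma muscle, 768, 880.1, 802 and 853 TPM in melanoma plus lisinopril muscle, 982, 946 and 887 TPM in lisinopril muscle and 850.5, 676, 796 and 947 TPM in control muscle (-0.14 ± 0.14, limma, adjusted p = 0.465).

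The muscle mutase, enolase and pyruvate kinase had the same layout at the next steps. Pgam2 had 3571, 909, 2995 and 2469 TPM in melanoma muscle, 2809, 2741, 3164 and 2164 TPM in melanoma plus lisinopril muscle, 3610.1, 3672 and 4178 TPM in lisinopril muscle and 3333, 2079, 3101 and 4083 TPM in control muscle. Eno3 had 7204, 1676, 6596 and 5663 TPM in melanoma muscle, 4993, 5357, 5988 and 6073 TPM in melanoma plus lisinopril muscle, 7173, 6279 and 7558 TPM in lisinopril muscle and 5716, 3372, 5664 and 7749 TPM in control muscle. Pkm had 2435, 959, 2345 and 1580.3 TPM in melanoma muscle, 1726, 1746, 2302 and 1689.9 TPM in melanoma plus lisinopril muscle, 2859, 2482 and 2868 TPM in lisinopril muscle and 2558, 1424, 2112 and 2983 TPM in control muscle. For all 3 genes the melanoma plus lisinopril libraries lay wholly below the lisinopril libraries, and melanoma 2 and control 2 were the lowest of their own groups. The average log2 fold changes were -0.48 ± 0.25 for Pgam2 (limma, adjusted p = 0.161), -0.27 ± 0.27 for Eno3 (0.470) and -0.46 ± 0.20 for Pkm (0.113).

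Leaving out melanoma 2 and control 2 left 7 members higher, among them Fbp2 in place of Hk2, and 4 lower, where the shares of all genes were 26.1% and 5.12%. The 4 that then fell were Pgam2 (-0.36 ± 0.12, limma, adjusted p = 0.0375), Pkm (-0.42 ± 0.13, adjusted p = 0.0295), Ldhb (-0.58 ± 0.20, adjusted p = 0.0403) and Pgm2 (-0.44 ± 0.16, adjusted p = 0.0463). With median-ratio rescaling in addition, which moves the median of all genes to near 0, 9 members fell, namely Tpi1, Pgk1, Pgam2, Eno1, Eno3 and Pkm of lower glycolysis and Pfkfb1, Ldhb and Pgm2, where 15.9% of all genes fell, and 5 rose (Slc2a1, Gpi1, Pfkfb4, Fbp2 and Ppp1r3c), where 15.1% of all genes rose. The number of members called in each direction thus moved with the scaling of the libraries. The all-gene median of the average tumour effect was 0.17 on the log2 scale as deposited, and mitochondrial transcripts made up 28.5% to 46.9% of TPM in tumour-bearing and 40.8% to 52.8% in tumour-free libraries.

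The count of 7 also moved with single libraries. It was 2 without control 3, lisinopril 1, lisinopril 2 or melanoma plus lisinopril 1, 3 without lisinopril 3 or melanoma plus lisinopril 4, 4 without control 1, control 4 or melanoma 1, and 8 without control 2. Ppp1r3c and Gyg kept their calls in all 15 of these fits.

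Forms of the enzymes that are typical of tissues other than muscle were low. Pgam1, the broadly expressed mutase, had 17.5 to 25.0 TPM in melanoma, 16.9 to 47.0 TPM in melanoma plus lisinopril, 12.9 to 20.3 TPM in lisinopril and 15.8 to 24.5 TPM in control muscle (log2 fold change 0.39 ± 0.21, limma, adjusted p = 0.179). Eno1, the broadly expressed enolase, had 12.2 to 20.01 TPM in melanoma, 14.8 to 14.99 TPM in melanoma plus lisinopril, 15.2 to 20.8 TPM in lisinopril and 14.2 to 32.5 TPM in control muscle (-0.31 ± 0.15, limma, adjusted p = 0.155). Its value is uncertain, because the near copy Eno1b was listed at 25.2 to 60.6 TPM and reads could be split between them. The processed copies Gapdh-ps14, Gapdh-ps15, Pgam1-ps1 and Pgam1-ps2 were listed at 0 throughout.

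None of the 4 genes of lactate and glycerol phosphate handling passed. Ldha, the lactate dehydrogenase form of fast muscle, had 2511, 716, 2166 and 1807 TPM in melanoma muscle, 1504, 1720.4, 1976 and 2278 TPM in melanoma plus lisinopril muscle, 1923, 1725 and 1943 TPM in lisinopril muscle and 1498, 1057, 1512 and 2055 TPM in control muscle, with full overlap (log2 fold change 0.06 ± 0.23, limma, adjusted p = 0.870). Ldhb, the form of heart and oxidative muscle, had 66.0, 174, 91.5 and 147 TPM in melanoma muscle and 165, 127, 138 and 131 TPM in melanoma plus lisinopril muscle, against 126, 206 and 117 TPM in lisinopril muscle and 233, 195, 255 and 152 TPM in control muscle. Of the melanoma libraries, melanoma 2 alone lay within the control range (-0.46 ± 0.20 on average, limma, adjusted p = 0.109). Slc16a3, the lactate exporter MCT4, averaged 115 ± 55.5 TPM in melanoma, 104 ± 14.4 TPM in melanoma plus lisinopril, 114 ± 14.96 TPM in lisinopril and 99.9 ± 22.4 TPM in control muscle. Gpd1 averaged 336 ± 211 TPM in melanoma, 311 ± 97.6 TPM in melanoma plus lisinopril, 446 ± 89.1 TPM in lisinopril and 321 ± 80.3 TPM in control muscle.

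Of the other genes of glycogen synthesis, none passed. Ugp2, which makes the UDP-glucose that glycogen synthase uses, had 666, 1334, 615 and 597 TPM in melanoma muscle and 1205, 869, 708 and 962 TPM in melanoma plus lisinopril muscle, against 596, 628 and 589 TPM in lisinopril muscle and 665, 471, 702 and 630.2 TPM in control muscle. All 4 melanoma plus lisinopril libraries exceeded the lisinopril libraries, and the melanoma and control ranges overlapped (average log2 fold change 0.46 ± 0.17, limma, adjusted p = 0.0747). Gys1, the muscle glycogen synthase, averaged 407 ± 62.6 TPM in melanoma and 410.4 ± 78.0 TPM in melanoma plus lisinopril muscle, against 305 ± 30.9 TPM in lisinopril and 345 ± 63.2 TPM in control muscle (0.33 ± 0.13, limma, adjusted p = 0.0733). Without melanoma 2 and control 2 the log2 fold change was 0.26 ± 0.11 for Ugp2 and 0.22 ± 0.11 for Gys1 (limma, adjusted p = 0.0946 and 0.138), and with median-ratio rescaling in addition it was 0.04 ± 0.13 and -0.0013 ± 0.12 (adjusted p = 0.838 and 0.995). Gbe1, the branching enzyme, had 39.2 to 117 TPM in tumour-bearing and 43.4 to 81.5 TPM in tumour-free muscle (0.22 ± 0.20, limma, adjusted p = 0.421). The phosphoglucomutase symbols need care, since the current and older names of Pgm1 and Pgm2 have been exchanged between 2 loci and the annotation behind the table is not given. Under the symbol Pgm2 stood 528, 84.9, 501 and 487 TPM in melanoma muscle, 272, 357, 501 and 409 TPM in melanoma plus lisinopril muscle, 617, 555 and 672 TPM in lisinopril muscle and 527, 343, 443 and 799.6 TPM in control muscle (-0.67 ± 0.34, limma, adjusted p = 0.163), and under Pgm1 stood 2.08 to 15.2 TPM (0.25 ± 0.26, limma, adjusted p = 0.502).

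No gene of glycogen breakdown passed. Pygm had 4337, 1779.6, 3905 and 3068 TPM in melanoma muscle, 2909, 2709, 3925 and 4118 TPM in melanoma plus lisinopril muscle, 3282, 2733 and 3790.2 TPM in lisinopril muscle and 2400.2, 2317, 2115 and 3544 TPM in control muscle, and the ranges overlapped (log2 fold change 0.17 ± 0.19, limma, adjusted p = 0.528). The phosphorylase kinase subunits Phka1, Phkb and Phkg1, which switch phosphorylase on, had log2 fold changes of -0.11 ± 0.33, -0.15 ± 0.16 and -0.25 ± 0.23 (limma, adjusted p = 0.821, 0.518 and 0.446). In each of the 3, melanoma 2 held the lowest value of all libraries. Ppp1r3a, the muscle glycogen-targeting subunit of protein phosphatase 1, moved less than its relative Ppp1r3c, with 153 ± 10.5 TPM in melanoma and 159 ± 14.6 TPM in melanoma plus lisinopril muscle, against 121 ± 29.6 TPM in lisinopril and 132 ± 21.0 TPM in control muscle (0.32 ± 0.12, limma, adjusted p = 0.0651). Epm2a, the glycogen phosphatase laforin, and Stbd1, which tethers glycogen to membranes, had log2 fold changes of -0.17 ± 0.12 and -0.04 ± 0.32 (limma, adjusted p = 0.307 and 0.934).

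In mice without the drug, melanoma against control, 0 of 38 members passed limma's test in either direction, where 0.461% of all genes were called higher and 0.185% lower. At an unadjusted p under 0.05 there were 7 members, Gpi1, Aldoa, Gapdh, Gyg and Ppp1r3c with higher and Eno1 and Ldhb with lower values, against 18.5% of all genes. The melanoma and control libraries did not overlap for Gpi1, Aldoa and Gyg, which were higher, 3 of 38 where 5.33% of all genes separated this way; 0 of 38 separated downward, where 2.89% of all genes did. The median log2 fold change was 0.05 for the members and 0.10 for all genes. Without melanoma 2, Fbp2 passed as the single member.

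In mice given the drug, melanoma plus lisinopril against lisinopril, 1 of 38 members was higher, Ppp1r3c, where 1.34% of all genes were called higher, and 0 were lower, where 0.143% were. Its log2 fold change was 2.20 ± 0.51, or 4.59-fold, all 4 melanoma plus lisinopril libraries being above all 3 lisinopril libraries (limma, adjusted p = 0.0484). That call was close to the threshold: it was lost on leaving out control 1, control 4, any of the 3 lisinopril libraries, melanoma 3, melanoma 4, or melanoma plus lisinopril 1, 2 or 4, with log2 fold changes of 1.96 to 2.59 over all 15 such fits. The count was 4 without melanoma 2, 2 without melanoma plus lisinopril 3, and 7 without both melanoma 2 and control 2, whose removal left these fold changes as they were. At an unadjusted p under 0.05 there were 9 members, all higher, against 23.3% of all genes.

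By separation of the libraries in this comparison, the groups did not overlap for 12 members that were higher, Slc2a1, Hk1, Hk2, Gpi1, Pfkl, Pfkfb4, Fbp2, Ugp2, Gys1, Gyg, Ppp1r3a and Ppp1r3c, near the 29% of all genes that separated upward. They did not overlap for 7 members that were lower, Tpi1, Pgk1, Pgam2, Eno1, Eno3, Pkm and Pgm2, where 4.41% of all genes separated downward. Of those 7, 6 encode enzymes between triose phosphate and pyruvate, while Gapdh and Pgam1 of the same stretch, and Aldoa just before it, overlapped. Aldoa averaged 8925 TPM in melanoma plus lisinopril and 7482 TPM in lisinopril muscle, and Pgam1 28.3 and 15.7 TPM. The median log2 fold change was 0.00 for the members and 0.23 for all genes.

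Lisinopril itself moved no member past the threshold. Melanoma plus lisinopril against melanoma, lisinopril against control, and the interaction each gave 0 called members by limma, as they gave 0% of all genes. For melanoma plus lisinopril against melanoma, the median log2 fold change was 0.14 for members and -0.06 for all genes, with 31 of 38 members above the latter. For lisinopril against control the medians were 0.15 and -0.18, with 29 of 38 members above the latter. These shifts of the whole list were not tested. At an unadjusted p under 0.05, Hk2 (log2 fold change 0.63 ± 0.26) and Pfkfb4 (0.55 ± 0.25) had higher values in melanoma plus lisinopril than in melanoma muscle, with limma's adjusted p at 1.00 for both, where 1.59% of all genes stood at that level. Pfkl was the single such member for lisinopril against control (-0.54 ± 0.23, limma, adjusted p = 0.714; 3.87% of all genes) and for the interaction (0.69 ± 0.32, limma, adjusted p = 1.00; 1.27% of all genes). No member had separate groups in either drug comparison, in either direction; upward and downward shares of all genes were 0.193% and 0.688% between the tumour-bearing groups and 0.218% and 4.13% between the tumour-free groups. The tumour effects with and without the drug were thus not shown to differ for any member.

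Ratios of related genes within a library do not move with the scaling of that library, apart from the added 1 TPM. For 9 pairs of related genes, the log2 ratio was compared between tumour-bearing and tumour-free libraries. An exact two-sided permutation test relabelled the libraries within each drug arm (2450 relabellings, smallest possible p = 0.000408). After Benjamini-Hochberg adjustment over the 9 ratios, 0 passed. Slc2a4 over Slc2a1 differed by -0.84, all 8 tumour-bearing libraries lying below the tumour-free mean of their drug arm (exact permutation p = 0.0216, adjusted 0.167). Pgam2 over Pgam1 differed by -0.88, likewise in 8 of 8 libraries (exact permutation p = 0.0371, adjusted 0.167). Without control 2 both passed, at -0.97 and -1.02, together with Pgm2 over Pgm1 at -1.23 (exact permutation, adjusted p = 0.0465 each). With all libraries Pgm2 over Pgm1 differed by -0.92 (exact permutation p = 0.116, adjusted 0.347), and control 2 held the highest Pgm1, 15.2 TPM. Hk2 over Hk1, Ldha over Ldhb, Pygm over Pygb, Pfkm over Pfkl, Eno3 over Eno1 and Slc16a3 over Slc16a1 had differences of 0.50, 0.52, 0.18, -0.01, 0.03 and 0.09.

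**Figure D4:**
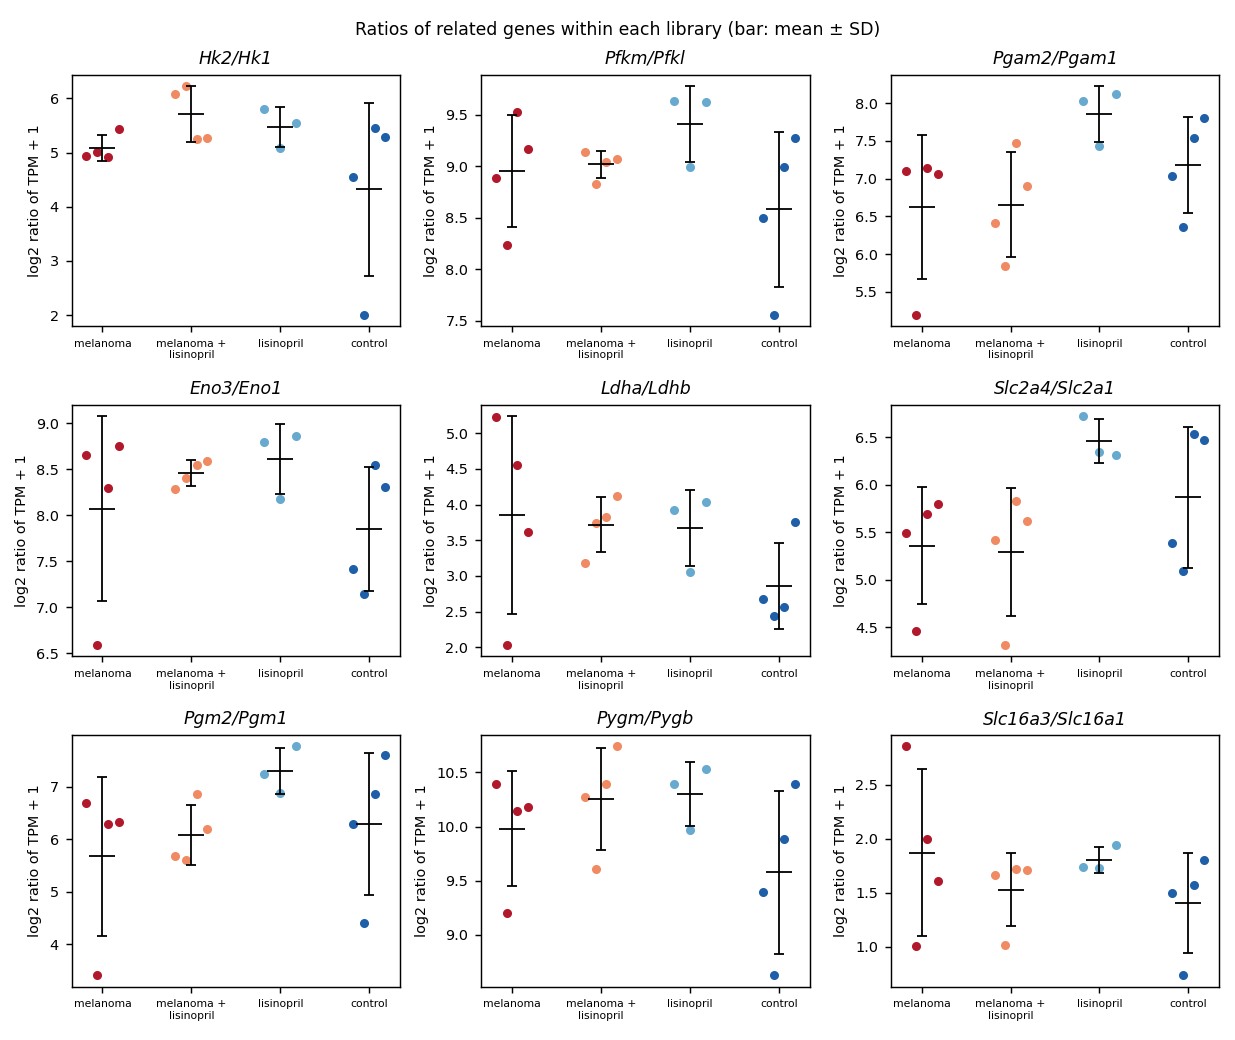
Log2 ratio of related genes within each library (vertical axes), with 1 point per library in melanoma, melanoma plus lisinopril, lisinopril and control muscle and a bar for the mean ± SD. Slc2a4 over Slc2a1 and Pgam2 over Pgam1 sit lower in the tumour-bearing groups, with average differences of -0.84 and -0.88 and overlapping ranges.

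A further list of 41 genes held other forms and side branches of the same pathways, of which 27 were kept. In the average tumour effect 3 of these rose, 11.1% of the kept genes beside 14.5% of all genes, and 0 fell. Among them Gaa, the lysosomal enzyme that digests glycogen, averaged 164 ± 108 TPM in melanoma and 159.8 ± 58.1 TPM in melanoma plus lisinopril muscle, against 83.7 ± 13.96 TPM in lisinopril and 79.4 ± 21.6 TPM in control muscle (log2 fold change 0.88 ± 0.26, limma, adjusted p = 0.0356).

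Of 25 regulators of these pathways, all kept, 4 rose (16% beside 14.5% of all genes) and 0 fell. The forkhead factor Foxo1 had 29.5, 43.9, 8.68 and 11.7 TPM in melanoma and 29.8, 9.55, 17.5 and 46.2 TPM in melanoma plus lisinopril muscle, against 3.94, 4.86 and 4.16 TPM in lisinopril and 6.93, 8.59, 3.70 and 4.79 TPM in control muscle (log2 fold change 1.85 ± 0.35, limma, adjusted p = 0.00538). Tumour-bearing and tumour-free libraries did not overlap, but only narrowly, at 8.68 over 8.59 TPM. Such separation upward was seen in 1 of 25 regulators and in 1.49% of all genes. Hif1a, the oxygen-sensitive subunit of the hypoxia-inducible factor, averaged 14.9 ± 2.45 and 14.1 ± 2.43 TPM in melanoma and melanoma plus lisinopril muscle, against 7.48 ± 1.96 and 10.9 ± 2.92 TPM in lisinopril and control muscle (0.65 ± 0.15, limma, adjusted p = 0.0139). The insulin receptor Insr rose by a log2 fold change of 0.72 ± 0.19 (limma, adjusted p = 0.0250), and Prkaa2, a catalytic subunit of the energy sensor AMPK, by 0.44 ± 0.12 (limma, adjusted p = 0.0254). How these 4 calls moved with the alternative settings is not given here.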

How the data were processed

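RNA of 15 tibialis anterior samples was sequenced from stranded mRNA libraries (TruSeq, NovaSeq), per the labels' protocols. The authors deposited a table of TPM per gene symbol, for which the submitters' processing notes name the build mm10. What aligner, counter, annotation or filter was used was not given in the sources used here. Deposited columns each sum to 1000000 TPM, so sequencing depth is unknown and no counting interval could be given.

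The treatment label set each library's group. Of 21659 symbols with any value, 11923 with at least 1 TPM in at least 3 libraries were kept, transformed to log2(TPM + 1) and entered into a linear model of 4 group means (limma 3.58.1, R 4.3.3; eBayes with trend; degrees of freedom 11 residual and 3.8 prior). The 6 contrasts were two-sided, with Benjamini-Hochberg adjustment over all kept genes of a contrast and a threshold of 0.05. Standard errors are given for log2 fold changes and SD for TPM. Ratios and figures used Python 3.11.15 (numpy 2.4.6, pandas 2.3.3, matplotlib 3.10.9). The fit was tested on simulated data.

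The members, the further lists and the tests were chosen with earlier results of these data known. Values in every library are given for members past the threshold in any contrast and for the 10 members with the highest mean level, and of the further and regulator lists those past the threshold in the average tumour effect are named, except that some are not reported here. Genes named for an unadjusted p, for separate groups or under an alternative were chosen after their values were seen. Promoter windows come from RefSeq (GRCm38.p6) and gene positions from GENCODE M21 (GRCm38), in which 45134 of 47643 symbols (94.7%) were found. Alternatives were the filter, the pseudocount, the scaling, the form of the model, the libraries entered and, added after seeing the data, the same set for members called without melanoma 2 and control 2 and for Ugp2, Gys1 and Hk1.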

Additional observations from a re-analysis of the deposited data

Results flagged for a closer look

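In 114 tests of a gene within a group of 4 libraries, 9 found 1 library farther from the rest than Dixon's critical value, and chance flags about 1 in 20. Of these, 5 concerned melanoma 2: Slc2a1 stood at 19.9 TPM (the other 3 at 5.13 to 7.43), Ugp2 at 1334 TPM (597 to 666), Pgm2 at 84.9 TPM (487 to 528), Phka1 at 36.9 TPM (197 to 230.1) and Phkg1 at 77.3 TPM (246 to 255). Melanoma 1 had 1625 TPM of Ppp1r3c, against 286 to 377 TPM in the other melanoma libraries. Melanoma plus lisinopril 3 had 2302 TPM of Pkm, against 1689.9 to 1746 TPM in its group. Control 2 had 21.5 TPM of Hk1 (1.63 to 4.60 in the other controls), and control 4 had 249.8 TPM of Phka1 (138 to 141 in the other controls).

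Hk1 had values on opposite sides of the group mean with and without the drug, and passed no test. All 4 melanoma libraries were below the control mean, by -4.16 TPM on average, and all 4 melanoma plus lisinopril libraries were above the lisinopril mean. Control 2 alone lay above the control mean, and without it the log2 fold change of melanoma against control was 0.24, against -0.43 with all libraries (limma, adjusted p = 0.547 and 0.625). The sign pattern itself was not tested, and the interaction did not pass (log2 difference 1.07 ± 0.71, limma, adjusted p = 1.00).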

How the results depend on the processing

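In the average tumour effect, the 7 members higher became 2 with no filter, 2 with median-ratio rescaling and 4 without the mitochondrial genome, and 2 to 8 on leaving out single libraries. The 0 lower became 3 (Pfkfb1, Eno1, Ldhb) with median-ratio rescaling, 2 (Eno1, Ldhb) with quantile normalization, 1 (Eno1) without the mitochondrial genome, 3 (Pgam2, Pkm, Pgm2) with library weights, 4 without control 2 and melanoma 2, 9 with median-ratio rescaling in addition, and 0 to 1 on leaving out single libraries (Pkm without control 2). For melanoma against control, the 0 higher became 1 with quantile normalization (Aldoa), 2 with library weights, 1 without control 2 and melanoma 2 (Fbp2), 1 with rescaling in addition, and 0 to 1 on leaving out single libraries; the 0 lower became 1 with library weights (Ldhb). For melanoma plus lisinopril against lisinopril, the 1 higher became 0 with no filter, 0 under quantile normalization, 0 under median-ratio rescaling, 7 under library weights, 4 with only the groups compared, 7 without control 2 and melanoma 2, 2 with rescaling in addition, and 0 to 4 on leaving out single libraries; the 0 lower became 2 (Pkm, Pgm2) without control 2 and melanoma 2 and 7 with rescaling in addition. With no filter more genes were tested, and the cause of these shifts was not tested. Of all genes called in the average tumour effect, 80.8% were higher as deposited, 59.7% without the mitochondrial genome, 50% with quantile normalization and 46.7% with median-ratio rescaling. The drug comparisons and the interaction gave 0 members in every setting run. The 7 called log2 fold changes and that of Ppp1r3c under the drug kept their sign in every setting. The number of ratios past the threshold was 0 to 3 on leaving out single libraries, and 3 ratios changed sign there: Eno3 over Eno1 (-0.084 to 0.28), Pfkm over Pfkl (-0.18 to 0.11) and Slc16a3 over Slc16a1 (-0.070 to 0.24). Of values that did not pass, Gys1 turned to -0.0013 without control 2 and melanoma 2 under rescaling, and Hk1 in melanoma against control (-0.43) turned to 0.15 with library weights, 0.13 without control 2 and melanoma 2, 0.022 with rescaling in addition, and lay between -0.79 and 0.24 on leaving out single libraries. Whether replicate numbers pair the samples was not tested. Over 21 same-numbered pairs the correlation of deviations ran over -0.15 to 0.36, above 0.1 in 9. Over differently numbered pairs it ran over -0.42 to 0.36. With the replicate number as a block, the average tumour effect kept 7 members higher, and melanoma plus lisinopril against lisinopril had 2 (Slc2a1, Ppp1r3c).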
